A study of Mus musculus with 16 samples.

Results

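Luminal keratins, claudins, E-cadherin and mucin 1 were followed as a set of 10 structural genes of luminal mammary epithelium: Krt7, Krt8, Krt18, Krt19, Cdh1, Cldn1, Cldn3, Cldn4, Cldn7 and Muc1. They were taken by gene symbol from the annotation of an Illumina mouse bead array, where they had 13 probes, among 16593 named genes with 23978 probes. Of the 10 genes, 9 passed the filter on low signal and could be tested among 9903 genes, and Krt19 did not.

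RNA came from 16 mammary tumours of FvB mice, each under 1.0 cm across, that carried the MMTV-Neu transgene, in which the mouse mammary tumour virus promoter drives the Neu (ErbB2) oncogene in mammary epithelium. There were 5 primary tumours, 2 secondary tumours grown from transplanted lin- cells, and 9 secondary tumours that each arose from 1 tumour-initiating cell (single TIC). The study asked which genes differ between the primary and the secondary tumours and how alike the tumours are. Host genotype and shared donors are not stated, so the p-values speak only of the spread among these tumours, and tumour numbers are names without an order. Every array measured bulk tumour tissue, stroma included, in which fewer cells of a type and less RNA per cell cannot be told apart.

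Keratins 8 and 18 pair as the type II and type I chains of the intermediate filaments of simple epithelium, and keratins 7 and 19 are further type II and type I chains of ductal and luminal cells. Claudins are membrane proteins with paired extracellular loops that form the strands of tight junctions and set how leaky an epithelium is. E-cadherin, the product of Cdh1, holds neighbouring cells together at adherens junctions through catenins, and Muc1 is a transmembrane mucin of the apical, lumen-facing surface. In the mammary gland they are used to mark luminal rather than basal (myoepithelial) cells.

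The regions upstream of the genes on which the results turn are given first: Krt8 and Krt18, which lie next to each other on chromosome 15 with 0 protein-coding genes between them, Cldn7, the member that changed, and Muc1, which was lowest in single TIC 4 by all its probes. Each is the 250 bases before the annotated start, written 5′ to 3′ on the gene's strand, from RefSeq with build GRCm38.p6. Capitals mark CAGGTG or its reverse complement CACCTG, the E-box form that repressors of the Snail and Zeb families are known to bind in epithelial genes. The Krt8 window is chr15:102004343-102004592 (minus strand), with a match that starts at base -111.
Krt8: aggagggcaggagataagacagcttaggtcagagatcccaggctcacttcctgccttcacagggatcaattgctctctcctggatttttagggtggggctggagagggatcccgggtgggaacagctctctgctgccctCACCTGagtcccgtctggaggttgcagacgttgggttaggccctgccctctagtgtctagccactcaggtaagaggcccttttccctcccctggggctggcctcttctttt
The Krt18 window is chr15:102027966-102028215 (plus strand), with a match at -214.
Krt18: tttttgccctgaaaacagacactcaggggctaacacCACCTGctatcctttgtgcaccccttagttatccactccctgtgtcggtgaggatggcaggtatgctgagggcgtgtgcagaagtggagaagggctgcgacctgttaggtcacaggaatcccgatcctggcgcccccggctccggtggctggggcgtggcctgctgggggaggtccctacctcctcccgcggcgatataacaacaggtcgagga
Cldn7 has 2 annotated starts. The upstream window is chr11:69964529-69964778 and the downstream window is chr11:69965171-69965420, both on the plus strand, and the downstream window holds matches at -97 and -57.
Cldn7 upstream start: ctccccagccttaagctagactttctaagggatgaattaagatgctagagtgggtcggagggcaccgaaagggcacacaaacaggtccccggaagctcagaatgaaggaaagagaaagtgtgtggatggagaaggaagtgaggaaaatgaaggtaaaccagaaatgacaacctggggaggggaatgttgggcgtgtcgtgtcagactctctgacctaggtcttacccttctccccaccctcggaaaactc
Cldn7 downstream start: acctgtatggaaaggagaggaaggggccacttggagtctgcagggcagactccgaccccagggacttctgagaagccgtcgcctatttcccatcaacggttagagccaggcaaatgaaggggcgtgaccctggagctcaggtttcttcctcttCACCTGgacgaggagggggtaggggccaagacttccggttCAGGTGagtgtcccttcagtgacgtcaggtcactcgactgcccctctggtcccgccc
The Muc1 window is chr3:89228806-89229055 (plus strand), with matches at -234 and -70.
Muc1: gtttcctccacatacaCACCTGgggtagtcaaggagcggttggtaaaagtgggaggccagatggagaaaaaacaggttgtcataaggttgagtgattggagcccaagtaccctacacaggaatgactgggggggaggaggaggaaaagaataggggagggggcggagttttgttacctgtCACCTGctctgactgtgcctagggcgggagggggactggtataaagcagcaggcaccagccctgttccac
Windows were held for 8 of the 10 genes, 9 windows in all. CAGGTG, sought on both strands, stood in 6 of the 9 windows, in 6 different genes (Krt7, Krt8, Krt18, Cldn4, Cldn7 and Muc1), and in 17.2% of 32851 RefSeq windows of the same length. The GC box GGGCGG, sought on both strands, stood in 6 of the 9 windows and in 32.7% of all windows. The motifs can share only an end base, and a match describes letters only.

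The 16 arrays detected 12513 to 13163 probes each, 48.7 to 51.2% of 25697, at a detection p under 0.05. Array mean raw intensity was 882 ± 57.1 in primary tumours (SD, n = 5), 961 ± 85.8 in lin- tumours (n = 2) and 961 ± 52.4 in single TIC tumours (n = 9), so array brightness moved with the groups. Mean correlation of an array with the others was 0.958 to 0.977, and primary 2 and single TIC 4 had the lowest. Levels below are log2 intensity after background correction and quantile normalisation. They compare tumours for one probe and do not rank one gene against another.

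Of the 10 genes, 8 were detected in all 16 tumours by the probe used, namely Krt7, Krt8, Krt18, Cdh1, Cldn1, Cldn3, Cldn4 and Cldn7. Among 16593 named genes, 7521 had a probe detected on every array, so detection alone does not mark a gene as luminal. Muc1 was detected on all arrays but 1 by its brightest probe, and on all 16 by another of its probes. Krt19 had 1 probe, detected on 0 of 16 arrays, with raw intensities of 89.2 to 123.6 and detection p of 0.303 to 0.995, and no level is given for it. The 10 listed basal and myoepithelial markers with a probe were counted by any of their probes. The basal keratin Krt5 and the smooth muscle genes Myh11 and Cnn1 were detected on no array. Tagln was detected on 4 arrays, Krt14 and Krt17 on 7 each, the P-cadherin gene Cdh3 on 10, Trp63 on 11, Acta2 on 15 and Mylk on all 16.

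Among the members, Cldn7, a claudin of tight junctions and lateral membranes, was the one gene that changed between single TIC and primary tumours, and it rose. Keratins 7, 8 and 18, E-cadherin, Cldn1, Cldn3, Cldn4 and Muc1 did not pass the test. Thus 1 of 9 members was called, where 6.26% of all 9903 genes were called (2.13% higher and 4.13% lower). Across the members 3 differences were above 0 and 6 below, with a median of -0.13 log2, and the median over all genes was -0.02. Single TIC and primary tumours were fully separate for 0 of 9 members and for 2.48% of all genes. All differences and adjusted p-values come from limma with Benjamini-Hochberg adjustment over all genes tested, called at an adjusted p under 0.05.

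Cldn7 read 8.02, 8.19, 8.38, 8.24 and 8.63 log2 intensity in primary tumours 1 to 5. The lin- tumours read 8.50 and 8.55. Single TIC tumours 1 to 9 read 8.91, 9.04, 8.81, 8.40, 8.64, 9.01, 8.91, 8.96 and 8.74. Every one of the 9 single TIC values exceeded the primary mean, and the groups overlapped only because single TIC 4 lay below primary 5. The mean rose from 8.29 ± 0.23 (SD, n = 5) to 8.83 ± 0.20 (SD, n = 9), a difference of 0.54 log2 (SE 0.12, 95% interval 0.28 to 0.79, 1.45-fold, limma adjusted p = 0.0179). The order of means was single TIC, lin-, primary. Neither step to the lin- tumours, at 0.30 log2 below the single TIC mean (SE 0.17, limma adjusted p = 1.00) and 0.24 above the primary mean (SE 0.18, limma adjusted p = 0.707), passed the test. With all 11 secondary tumours against the 5 primary, Cldn7 rose by 0.48 log2 (SE 0.12, limma adjusted p = 0.0249), and 11 of 11 lay above the primary mean. That call was again 1 of 9 members, against 7.65% of all genes (2.52% higher).

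The Cldn7 call was lost in 2 alternative fits. Without primary 1, the lowest tumour, the difference to single TIC tumours was 0.47 log2 (limma adjusted p = 0.0511). Once the mean raw intensity of each array was a covariate, the difference was no smaller, at 0.56 log2, but was not called (limma adjusted p = 0.107), in a fit where 7 of all genes were called in place of 620.

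**Figure D1:**
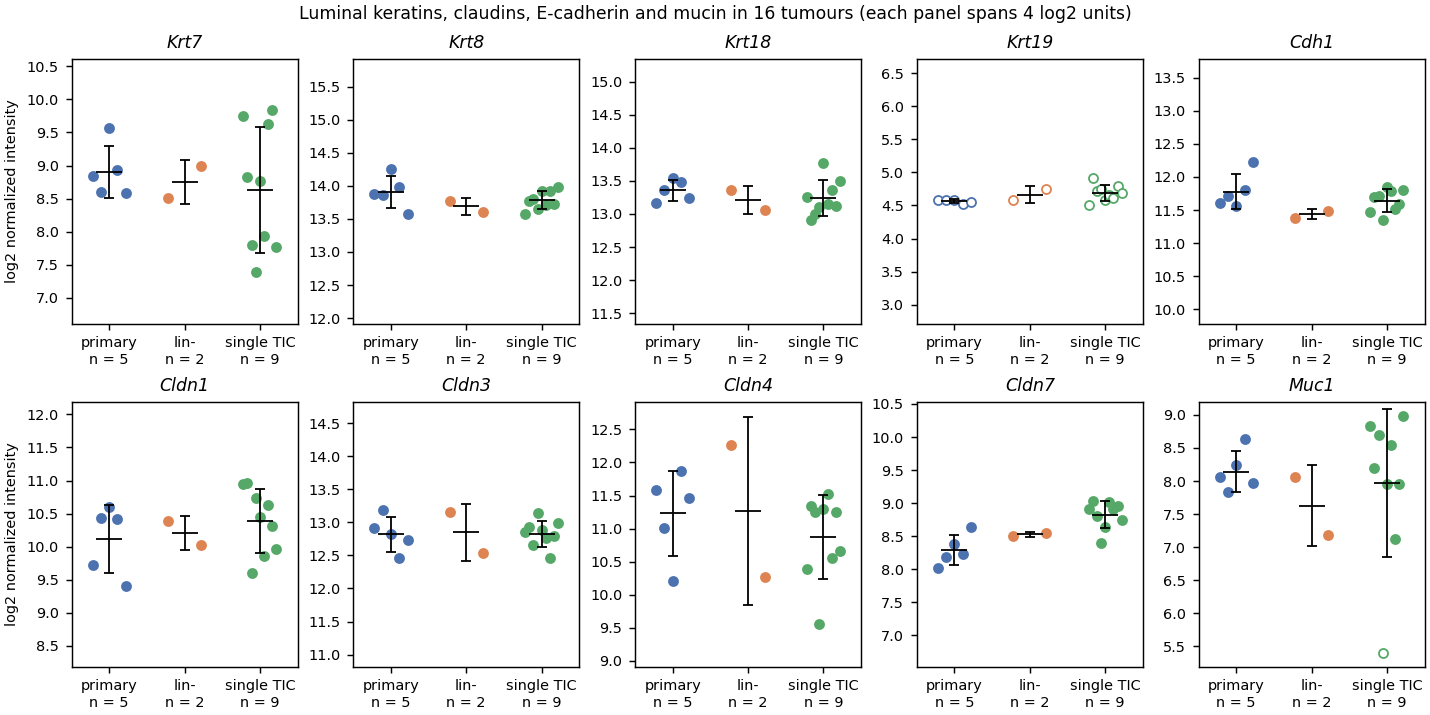
Log2 normalised intensity (vertical axis, each panel 4 log2 units tall) of each member in the 16 tumours, grouped as primary, lin- and single TIC, with the mean and SD of each group. Open points are tumours where the probe was not detected. Cldn7 sits higher in the single TIC tumours, Muc1 falls to 5.40 in single TIC 4, and the Krt19 points are open throughout.

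None of the other 3 claudins of the set passed the test. Cldn3, a sealing claudin, read 12.91, 13.18, 12.82, 12.45 and 12.74 in the primary tumours and 12.46 to 13.15 (median 12.86) in single TIC tumours. These ranges nearly coincide, with a difference of 0.01 log2 (SE 0.14, 95% interval -0.28 to 0.30, limma adjusted p = 0.976). Cldn4, a sealing claudin with a high affinity for a clostridial toxin, read 11.59, 11.01, 10.21, 11.87 and 11.47 in primary tumours and 9.56 to 11.53 (median 11.25) in single TIC tumours. The groups overlapped over most of their range, at -0.36 log2 (SE 0.37, 95% interval -1.15 to 0.43, limma adjusted p = 0.584). Cldn1, a claudin needed for the skin barrier in mice, read 9.73, 10.43, 10.60, 10.42 and 9.41 in primary tumours and 9.61 to 10.96 (median 10.44) in single TIC tumours. Its difference was 0.27 log2 (SE 0.25, 95% interval -0.26 to 0.80, limma adjusted p = 0.535), and 6 of the 9 single TIC values exceeded the mean of the primary tumours.

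The keratins lay below their primary means without passing the test. Krt8 read 13.87, 13.86, 14.26, 13.98 and 13.58 in primary tumours and 13.58 to 13.98 (median 13.77) in single TIC tumours, all of which fell within the primary range but single TIC 1, which lay just under it. The difference was -0.13 log2 (SE 0.11, 95% interval -0.35 to 0.09, limma adjusted p = 0.470). Its partner Krt18 read 13.16, 13.36, 13.54, 13.49 and 13.25 in primary tumours and 12.91 to 13.78 (median 13.15) in single TIC tumours, at -0.12 log2 (SE 0.13, 95% interval -0.40 to 0.16, limma adjusted p = 0.615). Krt18 therefore reached both lower and higher in single TIC tumours than in any primary tumour. Krt7 read 8.85, 8.60, 9.56, 8.93 and 8.58 in primary tumours and 7.38 to 9.84 (median 8.77) in single TIC tumours, at -0.27 log2 (SE 0.40, 95% interval -1.12 to 0.58, limma adjusted p = 0.716).

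E-cadherin and mucin 1 did not pass either. Cdh1 read 11.60, 11.71, 11.56, 11.80 and 12.22 in primary tumours and 11.34 to 11.85 (median 11.69) in single TIC tumours, at -0.14 log2 (SE 0.12, 95% interval -0.38 to 0.11, limma adjusted p = 0.483). Primary 5 stood above every other tumour. Muc1, by its brightest probe, read 8.05, 7.83, 8.25, 8.63 and 7.96 in primary tumours and 5.40 to 8.98 (median 8.20) in single TIC tumours, the lowest value not detected, at -0.18 log2 (SE 0.46, 95% interval -1.16 to 0.80, limma adjusted p = 0.848). Without single TIC 4 that difference was 0.14 log2, so its sign rested on 1 tumour.

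**Figure D2:**
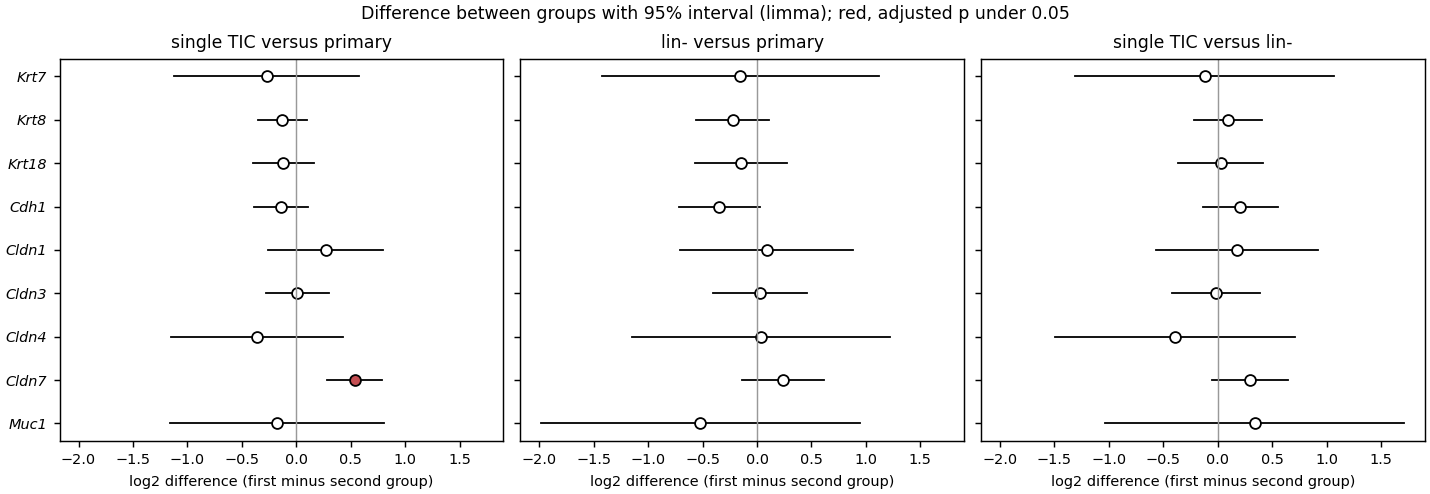
Difference in log2 intensity (horizontal axis) of each tested member in 3 comparisons, with 95% intervals from limma. The red point is Cldn7 for single TIC against primary tumours, at 0.54 with an interval of 0.28 to 0.79, the one called difference.

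No member was called between lin- and primary tumours, a comparison in which limma called 0 of 9903 genes (0%) and 975 genes had an unadjusted p under 0.05, none of them a member. Cdh1 read 11.38 and 11.49 in the lin- tumours, below all 5 primary tumours, at -0.35 log2 (SE 0.17, 95% interval -0.72 to 0.02, limma adjusted p = 0.539). It was the 1 member of 9 whose groups did not overlap, where 14.9% of all genes did not overlap and 8.61% lay lower without overlap. The lin- tumours read 8.06 and 7.19 for Muc1 (-0.52 log2 against primary, SE 0.69, limma adjusted p = 0.865). Cldn4 was 12.27 in one lin- tumour and 10.26 in the other, the highest of all 16 tumours and close to the lowest primary tumour. The lin- tumours read 8.51 and 8.99 for Krt7, 13.78 and 13.60 for Krt8, and 13.36 and 13.06 for Krt18. They read 10.38 and 10.03 for Cldn1, and 13.16 and 12.54 for Cldn3. Differences of these 5 genes and Cldn4 from primary tumours ran from -0.22 to 0.09 log2, and all 6 ranges overlapped the primary range.

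Between single TIC and lin- tumours 0 of 9 members and 0 of 9903 genes (0%) were called by limma, and 167 genes had an unadjusted p under 0.05, none of them a member. Differences ran from -0.39 log2 for Cldn4 (SE 0.52, limma adjusted p = 1.00) to 0.34 for Muc1 (SE 0.65, limma adjusted p = 1.00). With 2 lin- tumours, the interval for Cldn4 reached from -1.50 to 0.71 log2.

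Members differed widely in how much they varied among the 9 single TIC tumours. Over all genes the median SD in that group was 0.251 log2. Krt7 had an SD of 0.95 (5.47-fold range, above 97.0% of genes), Cldn4 0.63 (3.91-fold, above 92.0%) and Cldn1 0.49 (2.55-fold, above 86.2%). Muc1 had an SD of 1.12, which counts the value of single TIC 4, where the probe was not detected, and over the 8 tumours where it was detected the SD was 0.61 (3.62-fold range). At the other end Krt8 had an SD of 0.13 (1.32-fold range, above 11.2% of genes), Cdh1 0.17, Cldn3 0.20, Cldn7 0.20 and Krt18 0.27. In the 5 primary tumours Cldn4 and Cldn1 had the largest SDs, 0.65 and 0.52, and Krt18 the smallest, 0.16, beside a median over all genes of 0.257.

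**Figure D3:**
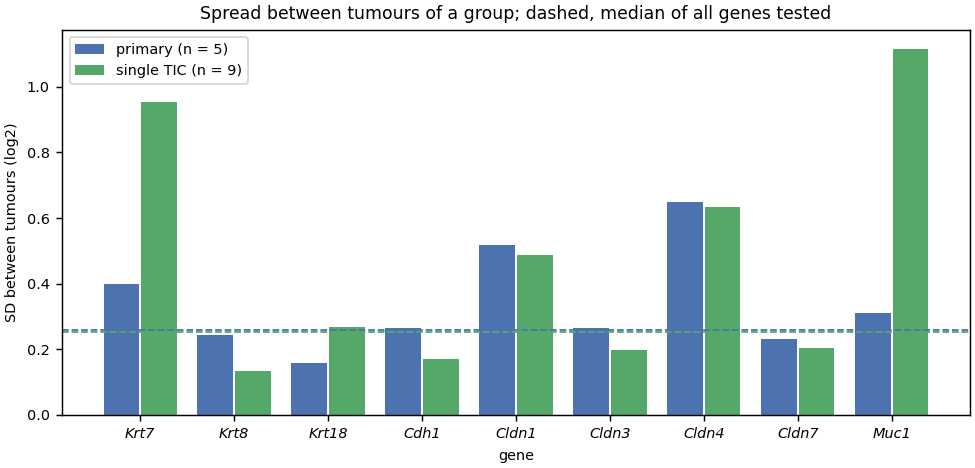
Standard deviation of log2 intensity (vertical axis) of each member among the 5 primary and the 9 single TIC tumours, with dashed lines at the median SD of all 9903 genes in each group. Muc1, at 1.12 with the undetected value of single TIC 4 included, and Krt7, at 0.95, stand highest among single TIC tumours.

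Krt7 spanned high and low values within the single TIC tumours. Tumours 1, 7 and 8 read 9.76, 9.63 and 9.84, tumours 2 and 5 read 8.83 and 8.77, and tumours 3, 4, 6 and 9 read 7.80, 7.38, 7.93 and 7.76. The primary tumours, at 8.58 to 9.56, held none of the low values. Its mean absolute deviation from the group median was 0.80 log2 in single TIC and 0.26 in primary tumours. A two-sided permutation test over all 2002 splits, chosen after the spread was seen, gave p = 0.0430 (n = 9 and 5), or 0.387 after adjustment over the 9 members. That p is approximate, because each value was first centred on the median of its own group. For Muc1 the same permutation test gave p = 0.193 (adjusted 0.870), and no member passed after adjustment.

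Single TIC 4 was the lowest of the 9 single TIC tumours for 5 of 9 members, Krt7, Cdh1, Cldn4, Cldn7 and Muc1, and the highest for Cldn3. It was also 1 of the 2 arrays with the lowest mean correlation with the rest. The share of all genes that were lowest in this tumour was not counted, so the low values are not shown to be particular to the members. Its log2 summed level of fibroblast genes, 13.60, was the highest of all tumours, and the part of stroma was not tested. Without single TIC 4 the SD of Muc1 among single TIC tumours was 0.61 in place of 1.12 log2 and that of Cldn4 was 0.43 in place of 0.63, whereas that of Krt7 was 0.89. The call of Cldn7 was kept without primary 2 and single TIC 4, at 0.56 log2 (limma adjusted p = 0.0149).

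**Figure D4:**
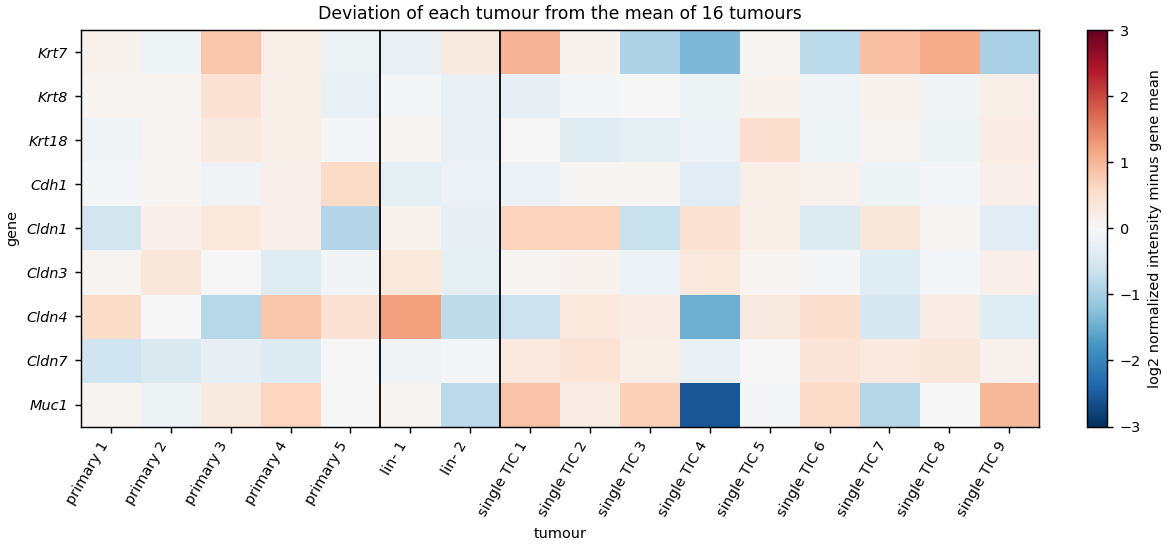
Deviation of each tested member (rows) in each tumour (columns) from that member's mean over the 16 tumours, in log2, on a colour scale. Single TIC 4 is below that mean for 7 of 9 members, and Krt7 is high in some single TIC tumours and low in others.

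The low Muc1 signal of single TIC 4 was seen by all 4 Muc1 probes, with levels of 4.98, 5.81, 6.37 and 5.40 log2 intensity, each the lowest of the 16 tumours for its probe. Muc1 was detected there by 2 of the 4 probes. Correlations between the probes over the 16 tumours were 0.862 to 0.942 (6 pairs), as a description of probes that share arrays. The 4 probes differed in the sign of the single TIC against primary difference, from -0.25 to 0.10 log2, and none was called among 14520 probes tested singly (limma adjusted p of 0.749 to 0.999).

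**Figure D5:**
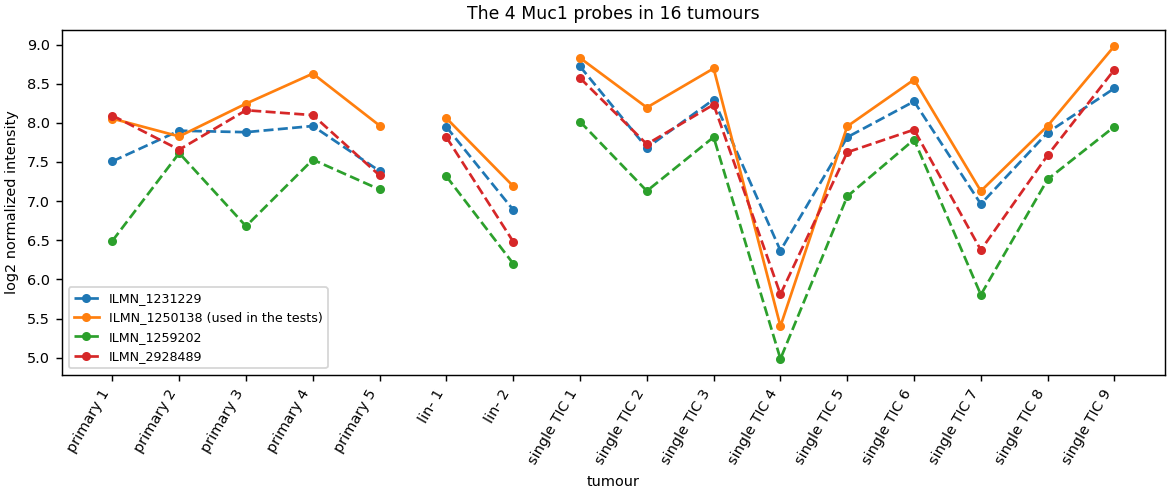
Log2 normalised intensity (vertical axis) of the 4 Muc1 probes in the 16 tumours (horizontal axis). All 4 lines drop to their lowest point at single TIC 4.

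Across the 16 tumours 36 pairs of members were compared, and 0 passed after Benjamini-Hochberg adjustment (smallest adjusted p = 0.368). Krt8 and Krt18, whose proteins pair, had the highest correlation, with Pearson r = 0.62 (permutation p = 0.0112, adjusted 0.368) and Spearman rho = 0.64 (permutation p = 0.00927, adjusted 0.334). Without the 2 tumours farthest from the Krt8 median r was 0.63. Within the 9 single TIC tumours r was 0.58 (exact permutation p = 0.0973, adjusted 0.457) and rho was 0.43 (exact permutation p = 0.250). Cldn3 and Cldn4, neighbours on chromosome 5 with 0 protein-coding genes between them, had r = -0.04 (permutation p = 0.893, adjusted 0.973) and rho = -0.03 (permutation p = 0.916).

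The other pairs with an unadjusted p under 0.05 were weaker when the 2 farthest tumours were left out. Cdh1 and Cldn1 had r = -0.56 (permutation p = 0.0204, adjusted 0.368) and rho = -0.47 (permutation p = 0.0693). Their r was -0.27 without the 2 tumours farthest from the Cdh1 median, and -0.32 without those farthest from the Cldn1 median. Cldn4 and Muc1 had r = 0.53 (permutation p = 0.0320, adjusted 0.384) and rho = 0.28 (permutation p = 0.292). Their r was 0.22 without the 2 tumours farthest from the Cldn4 median, and 0.048 without those farthest from the Muc1 median. The lowest Muc1 value, in single TIC 4, was not detected. Leaving out the 2 farthest tumours also narrows the range, so it cannot tell whether a relation rests on them. Among single TIC tumours Cdh1 and Cldn1 had r = -0.58 (exact permutation p = 0.102, adjusted 0.457) and rho = -0.57. There Cldn4 and Muc1 had r = 0.67 (exact permutation p = 0.0566, adjusted 0.457) and rho = 0.18. Within single TIC tumours Cdh1 and Cldn4 had r = 0.81 (exact permutation p = 0.00640, adjusted 0.230) and rho = 0.72 (exact permutation p = 0.0369), and r = 0.41 without the 2 farthest. Array brightness and stroma are shared by all points, and their part was not tested.

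For each member the 3 tested genes with the highest Pearson r over the 16 tumours were listed as a description, and no member was among them. Cldn7 was closest to Nt5c (r = 0.85), Nudt14 (0.85) and Rac3 (0.83). Muc1 was closest to Sp140 (0.93), Bloc1s1 (0.91) and Gmfg (0.91), which were 0.80, 0.78 and 0.76 without the 2 tumours farthest from the Muc1 median. Cldn4 was closest to Cdh3, which encodes P-cadherin (0.80), then Sdr16c5 (0.75) and Myl12a (0.74). Cdh3 was detected on only 10 of the 16 arrays, and its r was 0.68 without the 2 tumours farthest from the Cldn4 median. Cdh1 was closest to Cxcl17 (0.86), Ap1m1 (0.85) and Ppcdc (0.84), Cldn1 to Cdt1 (0.84), Mrpl40 (0.84) and Mfap1b (0.84), and Cldn3 to Brpf1 (0.80), Cactin (0.78) and Zfp574 (0.78). Krt18 was closest to Isoc2b (0.85), M6pr (0.80) and Gfus (0.78), Krt8 to Clec2e (0.78), Pcbp2 (0.77) and Pdha1 (0.76), and Krt7 to Xkr5 (0.72), Xdh (0.71) and Crnkl1 (0.69).

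Partners of the members in filaments and junctions were counted from gene lists. Of 6 other keratins tested, 0 rose and 0 fell between single TIC and primary tumours, with a median of -0.01 log2. Krt23 differed by 0.49 log2 (SE 0.18, limma adjusted p = 0.109) and Krt10 by -0.30 (SE 0.16, limma adjusted p = 0.252). Of 7 other claudins tested, 0 rose and 0 fell (median -0.16), with Cldn10 at -0.37 log2 (SE 0.31, limma adjusted p = 0.478) and Cldn2, a pore-forming claudin, at -0.37 (SE 0.96, limma adjusted p = 0.848). Cldn7 was thus the one claudin of 11 tested that was called, where 6.26% of all 9903 genes were called.

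The counts in this paragraph and the next stand beside 4.13% of all 9903 genes that fell and 2.13% that rose. Among 17 tight junction and polarity genes, 1 fell and 0 rose (median -0.03 log2). It was Patj, a scaffold of the Crumbs polarity complex, which fell by 0.55 log2 (SE 0.11, limma adjusted p = 0.0106). Its values were 9.005 to 9.56 in primary tumours and 8.47 to 8.93 in single TIC tumours. These did not overlap, as for 2.48% of all genes. All 4 kept Patj probes were lower, at -0.69 to -0.13 log2, but only the probe used was called when probes were tested singly. The others had limma adjusted p of 0.0674 to 0.666, and with the mean of probes the adjusted p was 0.0599. Among 10 adherens junction partners, 1 rose and 0 fell (median -0.11), Nectin3, an immunoglobulin-like adhesion molecule, which rose by 0.81 log2 (SE 0.22, limma adjusted p = 0.0419). A further Nectin3 probe differed by 0.75 log2, and the call was lost in 11 of 16 fits that each left out 1 tumour. Of 7 desmosome genes 0 rose and 0 fell (median -0.25), with the plakophilin Pkp1 at -0.62 log2 (SE 0.37, limma adjusted p = 0.302) and periplakin, Ppl, at -0.41 (SE 0.18, limma adjusted p = 0.166).

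Of 10 mucins and epithelial surface proteins 1 fell and 0 rose (median -0.10 log2), where 4.13% of all genes fell. St14, which encodes the membrane serine protease matriptase, fell by 0.51 log2 (SE 0.13, limma adjusted p = 0.0271). Its values were 10.93 to 11.51 in primary tumours and 10.16 to 10.85 in single TIC tumours. These did not overlap, as for 2.48% of all genes, and the call was lost in 3 of 16 fits that each left out 1 tumour. A second St14 probe differed by -0.32 log2 and was not called (limma adjusted p = 0.103). The mean of the St14 probes was called, at -0.41 log2 (limma adjusted p = 0.0366). Of 14 regulators of the epithelial programme 2 fell and 0 rose (median -0.07). Grhl1, a grainyhead-like transcription factor, fell by 0.52 log2 (SE 0.11, limma adjusted p = 0.0147) by its brighter probe, and its second probe differed by 0.06 (limma adjusted p = 0.919), so that the mean of probes was not called (adjusted p = 0.368). Esrp1, an epithelial splicing factor, fell by 0.28 log2 (SE 0.08, limma adjusted p = 0.0437), a call lost in 13 of 16 fits that each left out 1 tumour. Ovol2, a repressor of mesenchymal genes, differed by -0.37 log2 (SE 0.11, limma adjusted p = 0.0538). It was called only with all secondary tumours together (fell by 0.38 log2, SE 0.10, limma adjusted p = 0.0331). That comparison counted 3 fallen in this list and called 7.65% of all genes. With brightness as a covariate none of the 5 calls against primary tumours was kept (limma adjusted p of 0.0843 to 0.198), although the differences changed little, at -0.59 log2 for Patj, -0.57 for Grhl1, -0.49 for St14, 0.75 for Nectin3 and -0.28 for Esrp1. A further covariate was the fibroblast score, the mean log2 level of the listed fibroblast genes in each tumour. With it the calls of Patj, Grhl1 and Esrp1 were kept, and those of St14 (-0.44 log2, limma adjusted p = 0.0857) and Nectin3 (0.61, limma adjusted p = 0.157) were not. No gene of the 7 lists was called for lin- against primary or single TIC against lin- tumours, where 0 of all 9903 genes were called. Those 2 comparisons therefore say nothing particular about the lists.

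Markers of other cell types were read beside these results. For single TIC against primary tumours 4602 of all 9903 genes were higher, and 2.13% of all genes were called higher. The counts in this paragraph and the next stand beside these shares. Against primary tumours, 8 of 10 fibroblast genes were higher in the single TIC group, with a median difference of 1.12 log2 and 0 called. Bgn, a matrix proteoglycan, differed by 2.15 log2 (SE 0.75, limma adjusted p = 0.0947) and Sparc, another matrix protein, by 1.55 (SE 0.59, limma adjusted p = 0.117). The log2 of the summed fibroblast level was 10.30 to 13.25 in primary, 12.97 to 13.25 in lin- and 12.00 to 13.60 in single TIC tumours. All 8 endothelial genes were higher (median 0.91), and Ramp2, a receptor-modifying protein named after its value was seen, rose by 1.33 log2 (SE 0.32, limma adjusted p = 0.0233). The brightest genes of that list, Esam and Egfl7, differed by 0.90 and 1.62 log2 (limma adjusted p = 0.222 and 0.0972). The summed endothelial level was 8.41 to 11.79 in primary and 11.37 to 12.14 in single TIC tumours. With the fibroblast score as a covariate Cldn7 was 0.63 log2 higher (limma adjusted p = 0.0149), and 0.54 higher without it. The part of stroma in that difference was not tested.

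The remaining lists had 0 genes called for single TIC against primary tumours. Higher values stood in 7 of 8 macrophage genes (median 0.57 log2), 6 of 7 lymphocyte genes (0.31) and 3 of 3 adipocyte genes (0.91). Basal and myoepithelial genes were higher in 3 of 7 (median -0.06), skeletal muscle genes in 2 of 5 (-0.04) and skin keratinocyte genes in 1 of 4 (-0.12). The 2 brightest genes of each list were Laptm5 (0.82 log2) and C1qc (0.53) for macrophages, Cd3g (0.33) and Cd3d (0.42) for lymphocytes, and Lpl (0.67) and Adipoq (1.80) for adipocytes. They were Acta2 (1.96) and Mylk (-0.63) for basal and myoepithelial cells, Tnni2 (-0.04) and Des (0.28) for muscle, and Krt10 (-0.30) and Sprr1a (-0.13) for skin. The defining markers Kdr (endothelium), Itgam (macrophages), Cd8a, Cd4 and Ms4a1 (lymphocytes), Fabp4, Plin1 and Retn (adipocytes), Ckm and Myh4 (muscle), and Krt1, Krtdap and Dsg1a (skin) were detected on no array. The part of the other cell types in the differences of the members was not tested.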

How the data were processed

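RNA of 16 mammary tumours was measured on Illumina mouse bead arrays. Per the labels, total RNA was extracted with Trizol, checked on a Bioanalyser and labelled with biotin, and the submitters' processing notes name BeadStudio, with no version given. The deposited files held raw intensity per probe with a detection p-value per probe, and a table of the authors' processed intensity, whose array medians (151.8 to 152.1) show that it was scaled between arrays, by a method not given in the sources used here. Symbols came from the platform annotation, looked up by Entrez ID for 23962 probes in RefSeq GRCm38.p6, with 0 changed, and 1719 probes had no symbol.

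Raw intensities were background-corrected from the detection p-values, quantile-normalised and put on a log2 scale, with an offset of 16, by limma 3.58.1 in R 4.3.3, and the authors' processed values, on the log2 scale, were an alternative. A probe was kept if its detection p was under 0.05 on 2 arrays or more, and a gene was read from its brightest kept probe. Linear models with empirical Bayes moderation were fitted to all 16 tumours with 3 group means, or 2 for all secondary tumours, and p-values were adjusted over 9903 genes. The number of arrays limits the precision, most of all with 2 lin- tumours. Correlations and figures were made with Python 3.11.15, scipy 1.17.1 and matplotlib 3.10.9.

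Named genes were the members, the 3 genes most like each member, the called genes of each junction list or otherwise the 2 with the largest change, and the 2 genes with the highest mean in each cell type list. The members and all lists were chosen with earlier results of these data known. The single TIC against primary fit was also run on simulated data. It called 18 of 50 genes raised by 0.5 log2, 44 of 50 raised by 1 and 49 of 50 raised by 2. Of 50 genes lowered by 1 it called 41, and there were 6 false calls. Most simulated differences of 0.5 log2 were thus missed, so failing the test does not by itself exclude a difference of that size. For single TIC against primary tumours, the intervals given above excluded 0.5 log2 in either direction for Krt8, Krt18, Cdh1 and Cldn3. They did not exclude it for Krt7, Cldn1, Cldn4 and Muc1. Alternatives covered the background offset, the filter, the probe rule, array weights, covariates and leaving out tumours.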

Additional observations from a re-analysis of the deposited data

How the results depend on the processing

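Cldn7 kept its direction in every alternative fit listed here, and its calls for single TIC and for all secondary against primary tumours were each lost in 2. With array brightness (mean raw intensity) as a covariate Cldn7 was 0.56 log2 for single TIC against primary tumours (limma adjusted p = 0.107) and 0.50 for all secondary tumours (0.129), and 7 and 32 genes were then called in place of 620 and 758, with 0 members in both. Leaving out 1 tumour at a time gave Cldn7 0.47 to 0.62 (adjusted p 0.0105 to 0.0511) and 0.41 to 0.57 (0.0163 to 0.0728), the call being lost only without primary 1, and gave 0 to 1 members called in both and 0 to 0 in the comparisons with lin- tumours. Genes called were then 262 to 784 and 373 to 947, falling to 294, 262 and 278, and to 432, 387 and 373, without primary 1, 3 and 5, and 0 to 7 for lin- against primary and 0 to 1 for single TIC against lin- tumours. For lin- against primary tumours 1 gene was called with the authors' processed values, an offset of 50, no filter, detection on every array or only the groups compared, 10 with array weights, 5 with a fibroblast covariate and 2 without primary 2 and single TIC 4, the last setting being chosen after seeing the data. Array weights gave 1 gene for single TIC against lin- tumours.

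Of the uncalled members, Muc1 turned to 0.10 with detection on every array (another probe), 0.11 with the fibroblast covariate and 0.064 without primary 2 and single TIC 4 for single TIC against primary tumours, and to 0.026 and 0.072 in the first and second of these for all secondary tumours. Cldn4 turned to 0.0059 for all secondary tumours and Cldn1 to -0.047 for lin- against primary tumours with the brightness covariate. Without primary 2 and single TIC 4, Cldn4 turned to -0.020 for lin- against primary and Krt7 to 0.037 for single TIC against lin- tumours. Causes were not tested. Apart from the fits that left out 1 tumour each, 340 results of the 9 tested members kept direction and call, 9 turned sign and 2 lost the call.

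Leaving out 1 tumour turned the sign of further uncalled members. For single TIC against primary tumours Cldn3 ranged from -0.082 to 0.10 and Muc1 from -0.30 to 0.14, and for all secondary tumours Cldn3 from -0.079 to 0.10 and Muc1 from -0.35 to 0.011. For lin- against primary tumours Cldn1 ranged from -0.088 to 0.27, Cldn3 from -0.28 to 0.34, Cldn4 from -0.97 to 1.04, Krt18 from -0.30 to 0.0038 and Krt7 from -0.39 to 0.087. For single TIC against lin- tumours Cldn3 ranged from -0.33 to 0.29, Cldn4 from -1.39 to 0.61, Krt18 from -0.12 to 0.18, Krt7 from -0.36 to 0.12 and Muc1 from -0.092 to 0.78. No pair of members passed in any setting of the correlations. No paired analysis was possible because the labels give no shared replicate numbers. Signal near background limits Muc1 in single TIC 4 and Krt19 throughout.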
